A study of Mus musculus with 4 samples.

Results

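The alpha-arrestin genes Arrdc1, Arrdc2, Arrdc3 and Arrdc4, together with Txnip, a member of the same family, were followed in mouse gastrocnemius muscle with and without FoxO1, FoxO3 and FoxO4, fed or starved. They were chosen by family membership, with earlier results of these arrays known, and were read on every probe set annotated to 1 of these genes and to no other. This gave 5 of the 18193 genes that have such a probe set. The 5 genes are represented by 9 probe sets, of which 8 reached the median signal of at least 1 array, and all 5 genes had a probe set that did.

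Alpha-arrestins are cytoplasmic adaptors that share the arrestin fold with the better known visual and beta-arrestins. Through short PPxY motifs in their tails they bring ubiquitin ligases of the NEDD4 family to membrane proteins, which are then ubiquitinated, taken up and sorted by the ESCRT complexes. TXNIP also binds thioredoxin and promotes the uptake of glucose transporters from the cell surface, and its gene is a classical target of the glucose-sensing factors MondoA and ChREBP. Txnip and Arrdc4 respond to glucose in many cells, while ARRDC3 has been linked to the beta2-adrenergic receptor, integrin beta4 and energy balance, and ARRDC1 recruits the ESCRT-I protein TSG101 to the plasma membrane.

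The control mice carried floxed FoxO1,3,4 alleles (FoxO1,3,4 f/f), called wild type in the sample labels, and the knockout mice carried the same alleles and a Cre transgene under the MLC1f promoter, a promoter of fast muscle fibres, so that slow fibres and all other cells of the muscle may still hold FoxO. All mice were male, from a cross of C57BL/6N and FVBN, and were either fed at will or starved for 24 h with free access to water. For each condition the RNA of 6 muscles, taken from 3 mice, was combined into 1 pool and hybridized to 1 Affymetrix Mouse Genome 430 2.0 array, so that 4 arrays stand for 4 conditions and no comparison has a replicate or a test. The values are MAS 5.0 signals, linear brightness units used as deposited, and a gene is said to have risen or fallen where 2 signals of the same probe set differed at least 1.5-fold, the threshold of the study, which is 0.585 on the log2 scale.

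The median signal of the arrays lay between 22.9 and 26.3. Over the 12565 genes past the filter, the median log2 difference of the knockout from the control array was -0.20 in fed and -0.16 in starved muscle, and it was -0.05 and 0.02 once the arrays were scaled to the same median. Foxo4 signal was 9.49-fold lower in fed and 8.49-fold lower in starved knockout than in control muscle, Foxo1 signal was 1.64-fold and 3.35-fold lower, and Foxo3 stood at 1.19 and 0.965 of control. Where probes lie outside the deleted exons they do not report the deletion, and the position of these probe sets was not analysed here. All 8 markers of fast muscle fibres passed the filter and none differed 1.5-fold in any comparison of the arrays. Markers of other tissues did differ: 11 hair shaft genes summed to 1285.9 in fed control, 65.2 in starved control, 128.0 in fed knockout and 2017.7 in starved knockout muscle, and 7 epidermis genes to 549.0, 1214.9, 1572.2 and 1023.0. The 4 adipocyte markers summed to 5107.7, 5820.3, 4041.5 and 3417.7 in the same order, and the 3 blood markers to 261.4, 331.1, 216.8 and 202.5. The sums of slow fibre markers ranged from 22946.4 to 28446.6, of fibroblast markers from 17075.8 to 24363.5, of macrophage markers from 2245.8 to 3212.7 and of endothelial markers from 1930.8 to 2568.9. No marker past the filter was at 0.

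The stretches upstream of the annotated starts are shown because the genes responded differently to starvation and to the loss of FoxO, and because FoxO factors bind DNA through the letters GTAAACA. Each line gives the 250 bases before the start from RefSeq (GRCm38.p6), read 5′ to 3′ on the strand of the gene, with capitals marking matches to the motifs searched on both strands.
Arrdc2, chr8:70839721-70839970, minus strand: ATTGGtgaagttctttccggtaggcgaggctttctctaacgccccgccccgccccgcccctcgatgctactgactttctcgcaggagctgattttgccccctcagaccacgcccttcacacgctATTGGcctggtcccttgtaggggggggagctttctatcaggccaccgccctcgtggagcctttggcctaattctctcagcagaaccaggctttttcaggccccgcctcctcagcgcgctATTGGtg
Arrdc3, chr13:80883134-80883383, plus strand: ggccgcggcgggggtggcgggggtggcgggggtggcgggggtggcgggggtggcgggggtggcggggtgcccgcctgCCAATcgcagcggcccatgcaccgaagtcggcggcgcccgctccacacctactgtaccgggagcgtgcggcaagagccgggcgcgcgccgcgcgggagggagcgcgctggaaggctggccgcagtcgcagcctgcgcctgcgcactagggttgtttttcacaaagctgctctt
Txnip, chr3:96557707-96557956, plus strand: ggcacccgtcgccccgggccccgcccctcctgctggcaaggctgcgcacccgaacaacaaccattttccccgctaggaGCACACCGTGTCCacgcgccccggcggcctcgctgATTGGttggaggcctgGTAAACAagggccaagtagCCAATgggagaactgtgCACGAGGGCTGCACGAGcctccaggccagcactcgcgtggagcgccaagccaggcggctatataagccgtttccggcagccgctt
Arrdc4, chr7:68749239-68749488, minus strand: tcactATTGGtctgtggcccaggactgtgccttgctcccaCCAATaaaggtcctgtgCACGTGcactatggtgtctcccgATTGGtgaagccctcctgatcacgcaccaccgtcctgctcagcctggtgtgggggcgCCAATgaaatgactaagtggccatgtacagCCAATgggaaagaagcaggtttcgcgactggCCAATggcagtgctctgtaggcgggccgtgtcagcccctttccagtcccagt
The upstream stretch of Arrdc1 lies at chr2:24935282-24935531 on the minus strand and held no match, so it is not printed. Arrdc3 has 3 annotated starts, and the stretch shown belongs to that at the lowest coordinate.

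In windows from 250 bases before to 50 bases after the start, the FoxO letters GTAAACA were found at Txnip, at positions -121 to -115 from the start, and in none of the windows of Arrdc1, Arrdc2, Arrdc3 and Arrdc4. Of all 32851 such windows, 3.65% hold these letters. The Txnip window also held the pair of elements read by MondoA and ChREBP (CACGNG and CNCGNG with 5 bases between them) at -85 to -69, which 0.365% of windows hold. A glucocorticoid receptor pair (GNACA and TGTNC with 3 bases between them) stood at -172 to -160 of Txnip and is found in 0.475% of windows. The E-box CACGTG, present in 7.15% of windows, was found in Arrdc4 only among these genes, at -193 to -188. The letters CCAAT, read by NF-Y and present in 37.4% of windows, occurred 6 times at Arrdc4, 3 times at Arrdc2, and 2 times at Txnip. At Arrdc3 they stood once in each of the 2 overlapping windows, at the same place in the genome, and not in the other. GC content ran from 59.0% at Arrdc4 to 73.0% at Arrdc3, where 94.3% of all windows had less. These are matches of letters in a short window, not binding sites, and more distant sequence was not analysed here.

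**Figure D1:**
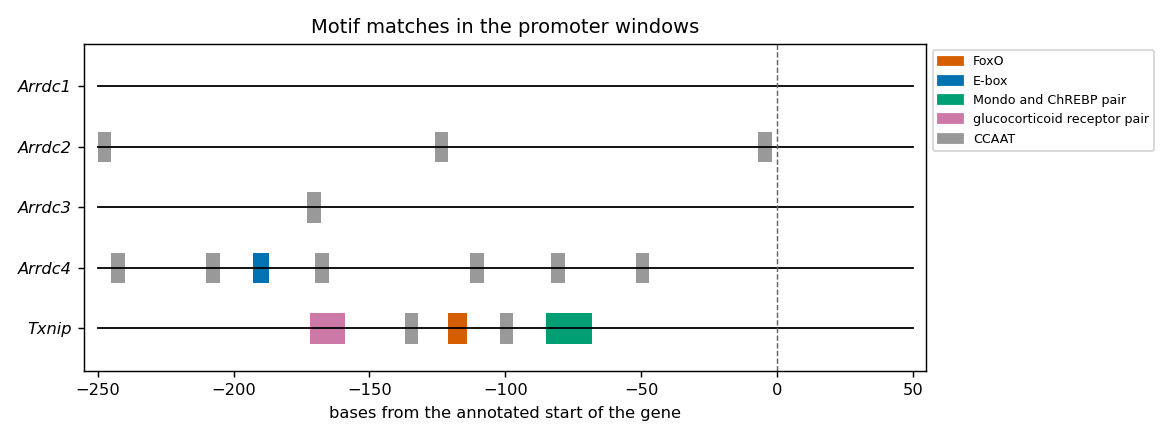
Positions of the motif matches in the promoter windows of the 5 genes, with bases from the annotated start on the horizontal axis (0 is the start, and the window of Arrdc3 is that of its start at the lowest coordinate). Coloured blocks mark the motif named in the legend; Txnip alone has a FoxO, a Mondo and ChREBP and a glucocorticoid receptor match, and Arrdc4 has 6 CCAAT matches and an E-box.

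Starvation was followed by higher signals of Arrdc2, Arrdc3 and Txnip in control muscle. In the knockout Arrdc2 rose less, Arrdc3 stayed near its fed level and Txnip rose by about the same factor as in control. Arrdc1 and Arrdc4 did not reach the threshold on starvation in either genotype on the probe set that stands for the gene, the brightest on average.

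Arrdc2, whose product has fewer known cargoes than its relatives, had the highest fold change on starvation in control muscle of the 5 genes. Its signal was 111.5 in fed control, 786.6 in starved control, 138.7 in fed knockout and 293.2 in starved knockout muscle. The starved control array stood apart from the other 3, and the starved knockout array was the next highest. The signal of control muscle thus rose 7.05-fold and that of knockout muscle 2.11-fold, a log2 fold change of 2.82 against 1.08. The knockout kept 38.3% of the log2 change of the control. In signal units the rise was 675.1 in control and 154.5 in knockout muscle. Among the 12565 genes Arrdc2 held rank 54 from the top in control and rank 371 in knockout muscle. In fed muscle it stood 1.24-fold higher in the knockout, below the threshold, and in starved muscle 2.68-fold lower.

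Arrdc3 signal was 573.5 in fed control, 2320.8 in starved control, 525.2 in fed knockout and 574.6 in starved knockout muscle. Only the starved control array was high, and the 3 others lay close together. The rise was 4.05-fold in control muscle, with a log2 fold change of 2.02 and rank 111 of 12565. In knockout muscle the starved signal was 1.09 times the fed signal, with a log2 value of 0.13 and rank 3469. That is 6.43% of the log2 change in control. Starved knockout muscle had a 4.04-fold lower signal than starved control muscle, rank 116 from the lowest, while the fed arrays differed by -0.13 on the log2 scale.

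To place Arrdc2 and Arrdc3 among all genes, a bound of 4-fold was set after the values were seen, and Arrdc3 at 4.05-fold lies just past it; with an offset of 32 it is at 3.89-fold and outside. Of 12565 genes, 114 rose at least 4-fold in control (0.907%), and 60 of these stayed under a 1.5-fold rise in the knockout. Among the 7575 genes at or above the 75th percentile on some array, 33 rose at least 4-fold, Arrdc2 and Arrdc3 among them, and 10 of the 33 stayed under a 1.5-fold rise in knockout muscle. These 10 were Arrdc3, the stress genes Gadd45a and Chac1, the transcription factor Maff, the kinase Sik1, Zfp932, and Krt2, Lor, Lce1h and Calm4, which are known from epidermis. A gene could reach the 75th percentile on the starved control array alone, as Maff and Sik1 did, so this bound admits genes for being high there. Epidermis markers were higher in starved than in fed control muscle, as given above. The marker sums highest on the starved control array, where Arrdc2 and Arrdc3 were also highest, were those of adipocytes and blood, and their part in the Arrdc2 and Arrdc3 signals was not tested. Of the 4 adipocyte markers 1 rose and 0 fell on starvation in control muscle, with a median log2 change of -0.04, so the sum is not shared by the list. Of the 3 blood markers 2 rose and 0 fell. In pooled tissue RNA, fewer cells of a type and less RNA per cell cannot be told apart.

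**Figure D2:**
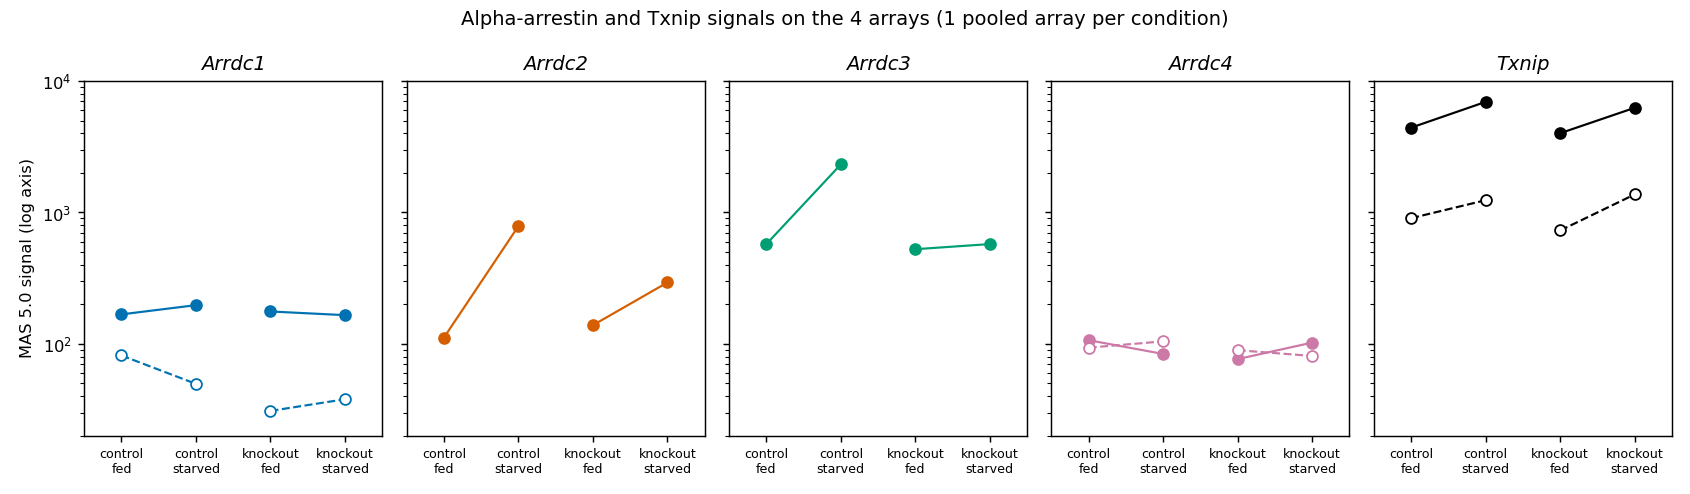
MAS 5.0 signal of each gene (log axis) on the 4 arrays, 1 pooled array per condition, with filled points and full lines for the probe set that stands for the gene and open points and dashed lines for its other probe set past the filter. Arrdc2 and Arrdc3 are highest on the starved control array at 786.6 and 2320.8, and Txnip is higher on both starved arrays; levels of different probe sets cannot be set against each other.

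Txnip, the inhibitor of thioredoxin and of glucose uptake, had signals of 4418.7 in fed control, 6942.6 in starved control, 4007.6 in fed knockout and 6255.5 in starved knockout muscle. Both starved arrays were above both fed arrays. The rise was 1.57-fold for the control and 1.56-fold for the knockout, just past the threshold in each, and the log2 responses of the genotypes differed by 0.0095. The other Txnip probe set gave 904.6, 1239.3, 729.2 and 1371.4 in the same order of arrays. On it the ratio was 1.37 in control, under the threshold, and the signal rose 1.88-fold in the knockout, so that the 2 probe sets differ in which genotype had the larger response. In fed and in starved muscle the first Txnip probe set stood at 0.907 and 0.901 of control in the knockout, log2 values of -0.14 and -0.15. With arrays scaled to the same median these were 0.0032 and 0.03, and after quantile normalization 0.0085 and -0.09, so that the sign is not settled.

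Arrdc4, the closest relative of Txnip in its response to glucose in other cells, did not follow it here. Its signals were 106.6 in fed control, 83.8 in starved control, 76.6 in fed knockout and 102.3 in starved knockout muscle. The fed control and the starved knockout arrays were the higher ones, as they were for the hair shaft markers, whose part in this pattern was not tested. Starved minus fed, its log2 value was -0.35 for the control and 0.42 for the knockout, each below the threshold, and their difference was -0.76. The other Arrdc4 probe set gave 93.6, 104.5, 89.5 and 80.9, with log2 changes of 0.16 and -0.15 and a difference of 0.30, so the sign depends on the probe set.

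Arrdc1, which acts in the budding of vesicles from the plasma membrane, had signals of 167.7, 197.1, 176.4 and 165.4 in fed control, starved control, fed knockout and starved knockout muscle. The 4 arrays differed little, with log2 changes on starvation of 0.23 in control and -0.09 in knockout muscle. A dimmer probe set of Arrdc1 behaved otherwise. It gave 81.6, 49.6, 30.9 and 37.9, and so fell 1.65-fold on starvation in control muscle and was 2.64-fold lower in fed knockout than in fed control muscle. The remaining Arrdc1 probe set stayed under the filter, between 3.3 and 6.7. Arrdc5, the remaining alpha-arrestin, was below the filter as well, with signals of 0.9, 8.1, 10.9 and 2.1, and is not counted among the 5 genes.

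The scatter between probe sets of the same gene is the only measure of error that the arrays hold. It contains no difference between mice, pools or hybridizations that the probe sets on an array share. For pairs in which the dimmer probe set had a mean signal from 100 to 200, the SD of the log2 fold change in control muscle was 0.24, and 8.96% of pairs were 1.5-fold apart. With the dimmer at 200 to 500 it was 0.20, at 500 to 1000 it was 0.16, and at 1000 and above 0.14. The responses of Arrdc2 and Arrdc3 in control muscle were many times these values, those of Txnip were a few times, and those of Arrdc1 and Arrdc4 were of the same order. Such multiples do not measure how far an array would differ from a repeat of it. The dimmer probe set of Arrdc1 and both probe sets of Arrdc4 had mean signals below 100, where the scatter was larger. From 50 to 100 the SD was 0.31, with 16.7% of pairs 1.5-fold apart, and below 50 it was 0.65, with 39.78%. Arrdc2 and Arrdc3 have 1 probe set each, so that no other probe set can be set beside theirs.

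Over all 12565 genes, 9.23% rose and 14.2% fell on starvation in control muscle, while of the 5 genes 3 rose and none fell. In knockout muscle 7.39% of all genes rose and 9.45% fell, and 2 of the 5, Arrdc2 and Txnip, rose. In fed muscle 3.38% of genes were higher and 11.3% lower in the knockout (4.78% and 7.19% with arrays scaled to the same median), and none of the 5 genes reached the threshold. In starved muscle 6.39% were higher and 14.6% lower (10.1% and 8.32% with the same scaling), and Arrdc2 and Arrdc3 were lower. For 10.4% of genes the log2 response of the control exceeded that of the knockout by at least 0.585, Arrdc2 and Arrdc3 among them. For 12.3% it was lower by as much, Arrdc4 among them on the probe set that stands for it. The other Arrdc4 probe set, of nearly the same mean signal, gave a difference of 0.30. The genes were picked with these values in view, so the counts are a description. The comparisons of the starved arrays and of the responses use the same starved control array, and the 2 rises in control muscle and the 2 lower signals in starved knockout muscle are not independent of each other. The median log2 change of the 5 genes was 0.65 in control and 0.42 in knockout muscle, against -0.11 and -0.06 over all genes. The median in control is the Txnip value, for which the other Txnip probe set gave 0.45. That in the knockout is the Arrdc4 value, for which the other Arrdc4 probe set gave -0.15, so it depends on the probe set.

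**Figure D3:**
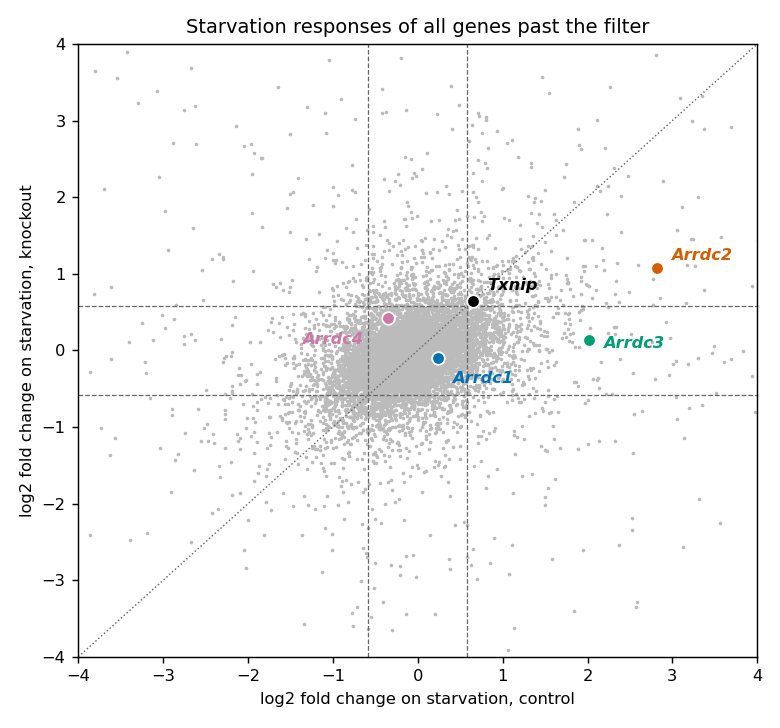
Log2 fold change on starvation in control (horizontal axis) against knockout muscle (vertical axis) for the 12565 genes past the filter (grey), with the 5 genes coloured; dashed lines mark 1.5-fold, the dotted line equal responses, and 74 genes lie outside the axes, which end at 4. Txnip (0.65 and 0.64) sits on the dotted line, and Arrdc2 (2.82 and 1.08) and Arrdc3 (2.02 and 0.13) lie to the right of it.

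To find genes that shared these patterns, the log2 signals over the 4 arrays, centred on the mean of each gene, were compared with those of 7424 named genes at or above that percentile on some array (7425 for Arrdc4). The measure is the Euclidean distance on the log2 scale, and with only 4 arrays a small distance is easily met. Arrdc3 lay nearest to Maff, a small Maf transcription factor, at 0.18, and to Sik1, a salt-inducible kinase, at 0.20. Maff signal was 66.9, 315.9, 66.0 and 77.1, and Sik1 signal was 83.6, 342.6, 81.8 and 100.2, in the order fed control, starved control, fed knockout and starved knockout. Like Arrdc3, both were high on the starved control array alone, which is also the only array on which they reached that percentile. Npc1, a lysosomal cholesterol transporter, followed at 0.28 and Ampd3, an AMP deaminase, at 0.36, with log2 responses of 1.70 and 1.62 in control against 0.16 and -0.15 in knockout muscle.

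Arrdc2 had no gene as near. The 4 closest were Acss1, a mitochondrial acetyl-CoA synthetase, at 0.58, the noncoding RNA gene Zfas1 at 0.58, the stress gene Gadd45g at 0.60 and Vnn1, a pantetheinase, at 0.60. All 4 rose in both genotypes with the larger log2 change in control, from 2.01 and 0.84 for Gadd45g to 3.12 and 1.87 for Vnn1. Txnip lay within 0.05 of all 4 of its nearest genes, the ubiquitin ligase gene Cblb at 0.034, Nceh1 at 0.040, Ank3 at 0.042 and Zxdc at 0.045. Cblb had log2 responses of 0.65 in control and 0.69 in knockout muscle. The genes nearest to Arrdc1 were Zfp292 (0.0090), Dda1 (0.029), Rbbp6 (0.031) and Kdm5a (0.046), and those nearest to Arrdc4 were Fbh1 (0.061), Gfm1 (0.070), Chd7 (0.078) and Pgls (0.078), all with log2 changes below the threshold on starvation.

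**Figure D4:**
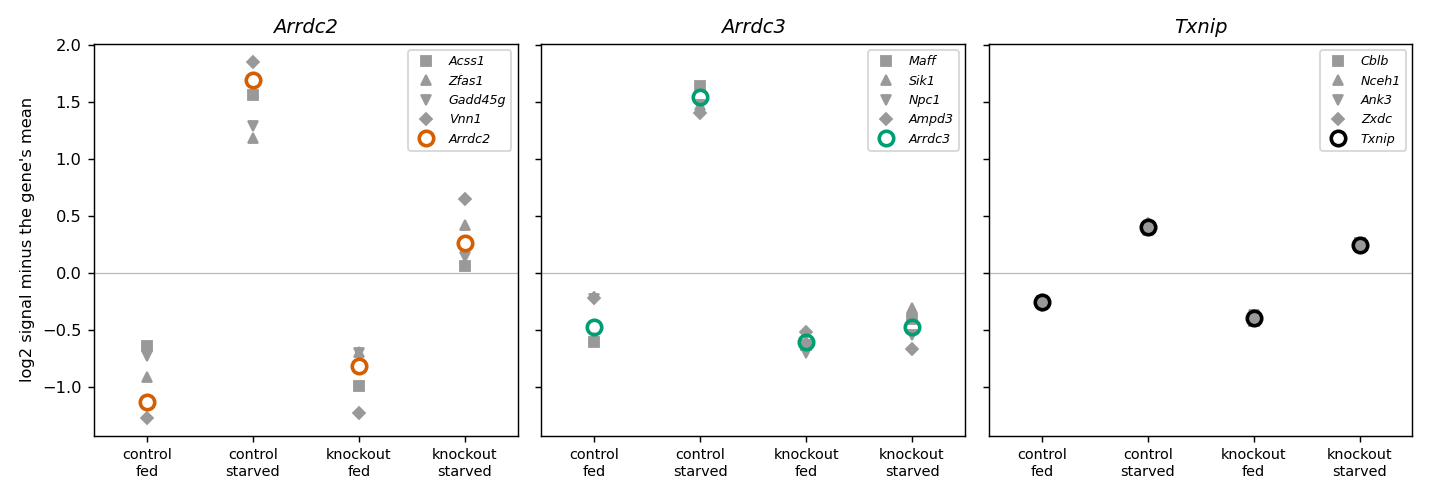
Log2 signal minus the mean of the gene on the 4 arrays (1 pooled array per condition) for Arrdc2, Arrdc3 and Txnip (open circles) and the 4 genes nearest to each (grey). Arrdc3 and its neighbours are high on the starved control array alone, whereas Arrdc2 and its neighbours are also above their fed values on the starved knockout array.

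Genes that work with the alpha-arrestins, or are related to them, were read as lists on the probe sets that stand for the genes. Their counts on starvation are to be set beside the shares of all genes. These are 9.23% up and 14.2% down in control and 7.39% and 9.45% in knockout muscle. In lists this short, counts near those shares say nothing particular about a list. Of the visual and beta-arrestin genes, 3 of 4 passed the filter and none rose or fell on starvation in either genotype, with medians on the log2 scale of -0.37 (control) and -0.19 (knockout). Arrb1, a beta-arrestin that desensitizes receptors coupled to G proteins, had log2 changes of -0.37 and -0.19, and Arrb2 had -0.18 and -0.52.

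The NEDD4 family, the ligases and the Ndfip adaptors that alpha-arrestins work with, had 10 of 11 genes past the filter. On the probe sets that stand for them none rose or fell on starvation in either genotype, and their medians were 0.02 in both. Of all 27 probe sets of these genes past the filter, 2 rose and 2 fell in control and 4 fell in knockout muscle, among them the other Wwp2 probe set (67.1, 36.5, 36.7 and 17.6), which fell in both genotypes. Nedd4l had the largest log2 change in control muscle at 0.42, against 0.17 in the knockout, followed by Hecw2 at 0.39 and 0.15 and Wwp1 at -0.27 and -0.25. In the knockout, Wwp2 was lower in fed muscle, by -0.59 on the log2 scale, and Smurf2 in starved muscle, by -0.66. Neither of these probe sets reached the threshold once arrays were scaled to the same median, while the other Wwp2 probe set stood at -0.87 in fed and -1.05 in starved muscle before scaling.

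All 15 ESCRT genes, which sort ubiquitinated cargo into lysosomes, passed the filter, with 2 that rose and 1 that fell in control muscle and 1 that rose in the knockout, counts near the shares of all genes. Vps37a, an ESCRT-I subunit, had signals of 695.3, 1205.2, 555.4 and 489.1 in fed control, starved control, fed knockout and starved knockout muscle. It was highest on the starved control array, with log2 responses of 0.79 in control and -0.18 in knockout muscle, although its other probe sets gave 0.40 and 0.55 in control. Hgs, the ESCRT-0 protein that binds ubiquitin, rose as well, with 0.67 in control and 0.11 in knockout muscle. Vps37d, dim at signals from 17.2 to 27.6, was both the gene that fell in control and the gene that rose in the knockout. The 15 genes had a median of -0.24 in control muscle and of -0.15 in the knockout, a little below those of all genes.

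Among the 11 genes of the Mondo and Max network, the transcription factors around MondoA, ChREBP and Myc, 2 rose and 1 fell in control and 1 rose and 1 fell in knockout muscle. Mlxip, which encodes MondoA, had signals of 335.7, 436.9, 268.8 and 479.2, with both starved arrays above both fed arrays as for Txnip. Its log2 response was 0.38 in control, below the threshold, and 0.83 in knockout muscle. Mlxipl, which encodes ChREBP, changed the other way, with -0.77 in control and -0.42 in knockout muscle. Myc signal was 89.2, 193.9, 78.8 and 81.0, high on the starved control array alone as for Arrdc3, with log2 responses of 1.12 and 0.04. Mga rose by 0.69 on the log2 scale in control muscle and had -0.01 in the knockout, but its other probe sets gave -0.06 and -0.21 in control. Mxd3, a repressor of the network, had -0.31 and -0.75, but it was dim, from 23.1 to 39.3, and its other probe set past the filter gave 2.33 and -3.88.

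Of the 15 genes of the thioredoxin system, whose reducing activity TXNIP blocks, 12 were read and all 12 passed the filter. The other 3 were not analysed here, and none was left out by the filter. On the probe sets that stand for the genes, Srxn1, which restores overoxidized peroxiredoxins, rose in control muscle and no other did, and none rose or fell in the knockout; over all 34 probe sets of the list past the filter 4 rose in control, and 3 rose and 1 fell in the knockout. Srxn1 signal was 178.9, 346.9, 155.5 and 122.0 in fed control, starved control, fed knockout and starved knockout muscle, with log2 responses of 0.96 and -0.35. Txn1, the thioredoxin that TXNIP binds, had 2888.5, 3484.1, 2485.5 and 2318.3, and log2 responses of 0.27 and -0.10. In starved muscle 3 of the 12 genes were lower in the knockout, as were 14.6% of all genes. These 3 were Srxn1 by -1.51, the reductase gene Txnrd1 by -0.82 and Txn1 by -0.59 on the log2 scale. Once arrays were scaled to the same median, Txn1 was within the threshold and 8.32% of all genes were lower. The mitochondrial thioredoxin gene Txn2 had log2 responses of -0.54 and 0.03, and its other probe sets gave -0.13 and -0.25, and -0.08 and -0.0031.

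**Figure D5:**
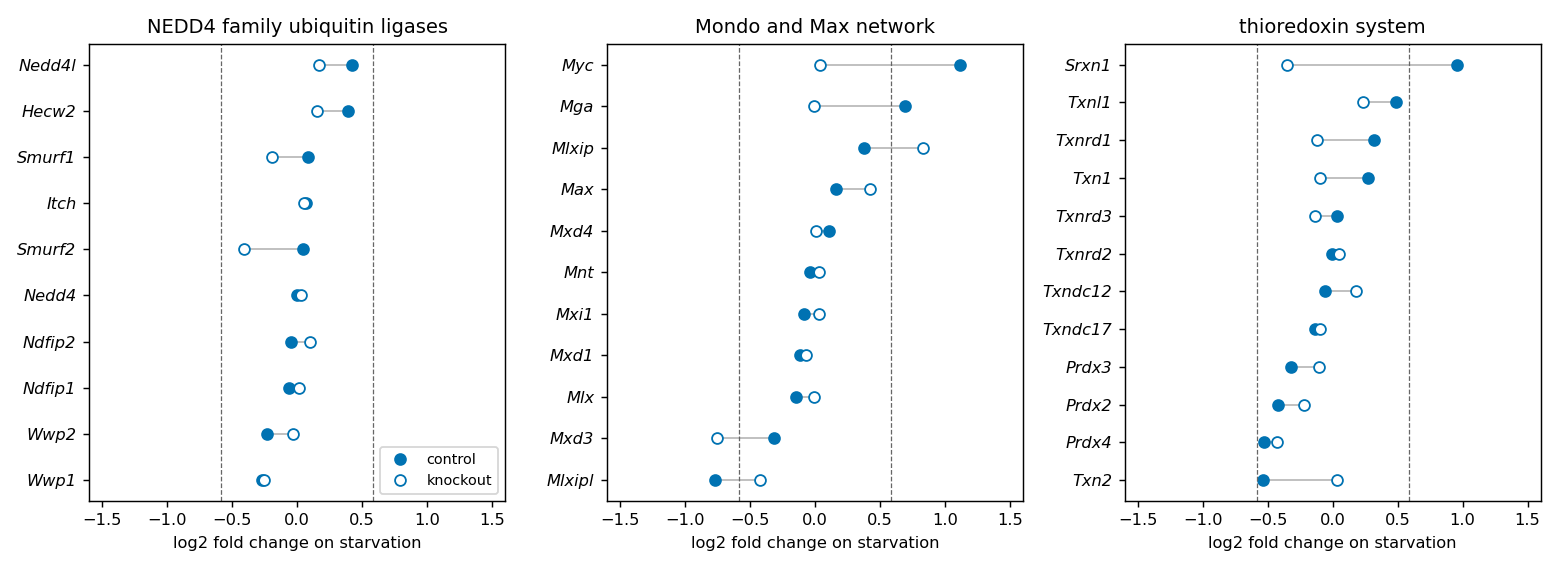
Log2 fold change on starvation in control (filled) and knockout muscle (open) for genes of the NEDD4 family, the Mondo and Max network and the thioredoxin system past the filter. Each condition is 1 pooled array, and the dashed lines stand at 1.5-fold. On the probe sets plotted, which stand for the genes, all NEDD4 family genes lie between the dashed lines in both genotypes, while Myc (1.12) and Srxn1 (0.96) pass them in control muscle alone.

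Membrane proteins that alpha-arrestins are known to act on, with the other genes of glucose entry, made a list of 15. Of these, 12 were read and all 12 passed the filter. The other 3 were not analysed here, and none was left out by the filter. In control muscle 1 rose and 1 fell, and in knockout muscle 1 rose. Igf1r, the receptor of the growth factor IGF1, had signals of 188.2, 325.4, 133.7 and 152.2 and log2 responses of 0.79 in control and 0.19 in knockout muscle. Hk2, the main hexokinase of muscle, fell in control muscle, with signals of 3434.7, 1995.9, 3442.9 and 2769.8 and log2 responses of -0.78 and -0.31. Slc2a3, which encodes the glucose transporter GLUT3, passed the threshold on starvation in the knockout, with 266.1, 220.5, 200.5 and 346.8 and responses of -0.27 and 0.79. Its fed control and starved knockout arrays were the higher ones, as for the hair shaft markers, whose part was not tested. Slc2a4, which encodes the insulin-responsive transporter GLUT4, had log2 responses of -0.06 and 0.14, and Slc2a1, for GLUT1, had 0.06 and -0.48. Itgb4, the integrin linked to ARRDC3, had -0.30 and 0.46. In starved muscle 4 genes of the list, Slc2a1, Slc2a8, Insr and Igf1r, were lower in the knockout and Slc2a3 was higher. Of all genes 14.6% were lower and 6.39% higher in that comparison. With arrays scaled to the same median only Igf1r was lower, and Slc2a3 and Hk2 were higher, against 8.32% and 10.1% of all genes.

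Genes induced by glucocorticoids, hormones that rise in starvation, were read for comparison. The 13 genes of this list include Nr3c1, which encodes the glucocorticoid receptor itself and had log2 responses of -0.39 and -0.55. In control muscle 10 of the 13 genes rose, and in the knockout 8, with median log2 changes of 1.42 and 0.71. The log2 response was larger in control by the threshold for 6 of the 13 and smaller for 3, against 10.4% and 12.3% of all genes. Ddit4, an inhibitor of mTORC1, had signals of 506.6, 4986.4, 630.9 and 2525.9 and rose in both genotypes with 3.30 and 2.00 on the log2 scale. The transcription factor gene Cebpd had 3.22 and 1.45 on its brighter probe set, and there both genes changed in the manner of Arrdc2. The dimmer Cebpd probe set gave 22.1, 142.9, 61.0 and 63.1. Its log2 responses were 2.69 in control and 0.05 in knockout muscle, so the likeness depends on the probe set. Errfi1, an inhibitor of the EGF receptor, had 622.2, 1677.2, 721.6 and 727.0, with responses of 1.43 and 0.01, high in starved control muscle alone as for Arrdc3. Pdk4, which restrains the use of glucose, and the metallothionein gene Mt2 had larger log2 responses in the knockout, 2.12 against 3.01 and 1.92 against 2.63. Their levels differed: Pdk4 signal was 3111.8, 13494.9, 1099.2 and 8836.0, lower in the knockout in both states and most so in fed muscle, while Mt2 signal was 681.1, 2574.6, 766.8 and 4758.9, highest in starved knockout muscle.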

How the data were processed

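Gene expression was measured in gastrocnemius muscle on 4 Affymetrix Mouse Genome 430 2.0 arrays, 1 pool per condition. The authors summarized probes into MAS 5.0 signals, which were deposited as intensity values on a linear scale (tools per the submitters' processing notes: MAS5 and Affymetrix Expression Console). For the scaling target and the detection calls, the sources used here give nothing. Signals were used as deposited, and a value of 0, which occurred 3 times, was set to 0.1 before logarithms.

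Of 45037 probe sets other than Affymetrix controls, 34945 were annotated to 1 gene, 932 to several and 9160 are not listed in the platform annotation. For 34741 the symbol was taken from RefSeq (GRCm38.p6) through the gene identifier, whether or not it differed from that of the platform. A probe set had to reach the 50th percentile of at least 1 array, and where a gene had several that did, the brightest on average stood for it. Log2 ratios of signals were read against 1.5-fold. With 1 array per condition there is no SD between replicates, no statistical test and no p-value, and precision is limited by the number of arrays. The SDs given are between probe sets of the same gene.

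The 5 genes, the 8 gene lists and the 9 marker lists were chosen with earlier results of these data known. Genes named were the 5, the FoxO genes, up to 4 genes per list with the largest change in control muscle and up to 4 whose responses differed most between genotypes, and the 4 nearest genes of each of the 5. Genes named because they reached a threshold, Slc2a4, Nr3c1 and the genes that rose at least 4-fold in control muscle alone were named after their values were seen. Promoter windows came from RefSeq (GRCm38.p6) and were matched by symbol for 5 of 5 genes; protein sequences were not analysed here. The alternatives were array scaling, quantile normalization, the filter, an offset, another choice among a gene's probe sets, and the threshold. Python 3.11.15, numpy 2.4.6, pandas 2.3.3 and matplotlib 3.10.9 were used.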

Additional observations from a re-analysis of the deposited data

Results flagged for a closer look

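Vps37d, an ESCRT-I subunit gene, moved in opposite directions in the genotypes: its signal was 27.1 in fed control, 17.9 in starved control, 17.2 in fed knockout and 27.6 in starved knockout muscle, and the log2 response in control minus that in knockout muscle was -1.28. This difference was not tested, since each condition has 1 array. The signals lie near the array medians, where the SD of this quantity between probe sets of the same gene was 0.90. In that range 55.84% of pairs were 1.5-fold apart. The fed control and starved knockout arrays were the higher ones, as for the hair shaft markers (1285.9, 65.2, 128.0 and 2017.7). The part of these markers was not tested.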

How the results depend on the processing

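Of 195 values of the 5 genes recomputed under 8 alternatives, 188 kept their side of the threshold and 7 did not. Part of this agreement was fixed in advance. The filter settings left each log2 value that they kept as it was, and the 2-fold threshold moved only the bound. Arrdc2 and Arrdc3 have 1 probe set each, so only median scaling, quantile normalization and the offset could change their log2 values. Of the 188, 11 changed sign, in Arrdc1, Arrdc3, Arrdc4 and Txnip, and each of these was below the threshold, at most 0.33 in size as first computed. Arrdc2 stayed between 2.51 and 2.91 in control and between 0.93 and 1.14 in knockout muscle on the log2 scale, and Arrdc3 between 1.96 and 2.06 and between 0.12 and 0.20. With the mean over all probe sets past the filter, Txnip had 0.55 in control muscle, below the threshold, the fed difference of Arrdc1 reversed to -0.66 and made 1 gene lower where there was 0, and the difference of the Arrdc4 responses was -0.23. With an offset of 32 added to the signals that Arrdc4 difference was -0.57. Under either of these, under a filter at the 75th percentile, where Arrdc4 had no value, and at a threshold of 2-fold, where it stood at -0.76, the genes with a lower response in control went from 1 to 0. At 2-fold, Txnip was below the threshold at 0.65 and 0.64, and 1 gene, Arrdc2, rose in knockout muscle in place of 2. Among all genes, the 1160 that rose in control muscle became 2997 with no filter, 514 with the filter at the 75th percentile, 591 with the offset and 469 at 2-fold, and the 928 that rose in knockout muscle became 2753, 286, 395 and 415. Under the same 4 settings the 1789 that fell in control muscle became 3599, 837, 943 and 606, and the 1188 that fell in the knockout 2998, 416, 439 and 403. The genes higher in fed knockout muscle became 2076, 44, 140 and 219 and those lower 3430, 408, 470 and 447, and in starved muscle those higher became 2419, 274, 369 and 380 and those lower 3863, 832, 847 and 569. The 1303 genes with a larger response in control became 3467, 396, 602 and 545, and the 1544 with a smaller response 3637, 506, 745 and 675. In starved muscle the 803 genes higher and 1835 lower in the knockout became 1264 and 1046 with arrays scaled to the same median and 1279 and 1039 after quantile normalization, and in fed muscle 425 and 1416 became 601 and 903, and 637 and 798. No paired analysis was possible because each condition has 1 array, and no array could be left out. The cause of these changes was not tested.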
